A study of Parasteatoda tepidariorum with 12 samples.

Results

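The genes described here are g18848 and g8301, 2 of the 27990 gene models counted in whole embryos of *Parasteatoda tepidariorum*, the common house spider. Gene model g18848 (aug3.g18848 in the count table, NCBI gene LOC107445969) is described as glycine dehydrogenase (decarboxylating), mitochondrial-like, which is the P protein of the glycine cleavage system. Gene model g8301 (aug3.g8301, LOC107456094) is described as aminomethyltransferase, mitochondrial-like, which is the T protein. Both were chosen because their counts were lower after knockdown of *fuchi*, so their values in that comparison are given as a description and carry no test.

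The glycine cleavage system is a set of mitochondrial proteins that breaks down glycine. The P protein removes the carboxyl group of glycine as carbon dioxide and hands the remaining aminomethyl group to a lipoate arm on the H protein, the T protein releases ammonia from it and passes the carbon unit to tetrahydrofolate, and the L protein reoxidizes the lipoate arm. The carbon unit then enters the folate cycle, which supplies purine and thymidylate synthesis, and in vertebrates the P, T and H proteins are known mainly from liver, kidney and the nervous system.

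The embryos were of the Osaka isolate, with 2 libraries in each of 6 groups, untreated and *fuchi* pRNAi at stage 2 (11 h after egg laying, the blastoderm), stage 3 (20 h, the forming germ disc) and early stage 5 (31 h, the formed germ disc). In parental RNAi (pRNAi) the mother is injected with double-stranded RNA and the transcript is depleted in her later eggs. The target, *fuchi* (g26874), is a gene for a GATA-like factor that binds DNA. Replicates 1 and 2 of every group were taken as 2 females, called female 1 and female 2 below. The labels give each replicate 1 code at both treatments and all stages, without saying that it is a female. The study took eggs of the injected females before and after injection. Each female thus gave untreated eggs before injection and *fuchi* pRNAi eggs 19 days (female 1) or 18 days (female 2) after the first injection. The untreated embryos had therefore received no control double-stranded RNA and came from earlier egg sacs of the same mothers, so the treatment, the injection itself and the order of laying cannot be told apart. Each library was made from the poly(A) RNA of pooled embryos, and whether fewer cells of a type or less RNA per cell lies behind a lower count cannot be told apart in such samples.

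Library totals ranged from 5662766 to 8857990 counts. Levels are given as CPM, counts divided by the scaled library size, and 3 counts corresponded to 0.339 to 0.530 CPM. In *fuchi* pRNAi embryos the level of *fuchi* itself was, in order of stage, 20.7%, 23.8% and 38% of the untreated level. With edgeR's quasi-likelihood test, *fuchi* passed an adjusted p of 0.01 at stage 3 (log2 fold change -2.07 ± 0.27 (SE), adjusted p = 0.00552). It also passed at early stage 5 (-1.40 ± 0.22, adjusted p = 0.00705) but not at stage 2 (-2.27 ± 0.41, adjusted p = 0.983). This test called 0 of 12079 gene models lower at stage 2, where *fuchi* had 524 and 298 counts untreated against 124 and 47. The study, in its own edgeR comparison, lists *fuchi* as changed at all 3 stages at a false discovery rate under 0.01. The adhesion gene *catA* (g13984), which the study checked beside *fuchi*, had log2 fold changes between 0.03 and 0.26 at the 3 stages.

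In the Ptep_1.0 assembly that the count table uses, g18848 lies on the minus strand of scaffold 3000 from 16900 to 69694 and spans 52795 bp. Its neighbours g18847, described as a mediator subunit 14-like gene, and g18849, uncharacterized, lie 6073 bp and 6101 bp away on the opposite strand. Over the 12 libraries g18847 ranged from 32 to 116 counts and g18849 from 0 to 18. The higher counts of g18849 were those of the untreated stage 3 libraries, 8 for female 1 and 18 for female 2. Each *fuchi* pRNAi library of that stage held 1 count of g18849, and no library of the other stages more than 3. Gene model g8301 lies on the plus strand of scaffold 895 from 142896 to 157735. Another gene model on the same strand, g8300, lies 2318 bp upstream of g8301, from 138756 to 140577, and has neither an NCBI gene nor a description. It is described with g8301 below, having been singled out after its values were seen. The ranges cover the gene models as a whole, and exons or untranslated parts within them were not analysed here. No other gene model carried the NCBI gene of either enzyme.

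In untreated embryos both transcripts were almost missing at stage 2 and became abundant by early stage 5. The P protein transcript g18848 had 3 counts in female 1 and 1 in female 2 at stage 2, 244 and 239 at stage 3, and 2001 and 1889 at early stage 5. The T protein transcript g8301 had 0 and 1 counts, then 77 and 86, then 636 and 531. At every step each later library was above both earlier ones, and the females lay close together at stage 3 and at early stage 5. Over the counts of both females, with library sizes scaled across all 12 libraries, g18848 was 157-fold higher at stage 3 than at stage 2 (95% counting interval 61.0 to 579) and a further 9.16-fold higher at early stage 5 (8.33 to 10.1). For g8301 the ratios were 212 (37.6 to 8431) and 8.15 (6.91 to 9.66). The intervals cover counting error only. The step from stage 3 to early stage 5 was 9.12-fold in female 1 and 9.24-fold in female 2 for g18848, and 9.18-fold and 7.22-fold for g8301. These untreated libraries also entered the choice of the genes, so the rises were not tested.

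After *fuchi* pRNAi both transcripts stayed low at all 3 stages. Gene model g18848 had 2 and 0 counts at stage 2, 7 and 9 at stage 3, and 24 and 25 at early stage 5 in females 1 and 2. Gene model g8301 had 0 and 0 counts at stage 2, 3 and 3 at stage 3, and 2 and 0 at early stage 5. At stage 3 and at early stage 5 both *fuchi* pRNAi libraries lay far below both untreated libraries for both genes, which were chosen for this fall. At stage 2, with 4 against 2 counts for g18848 and 1 against 0 for g8301, neither gene reached the filter of 1 CPM in a library, and a difference was not detectable at this depth.

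At stage 3 the level of g18848 was 37.6 ± 3.58 CPM (SD, n = 2) in the untreated group and 1.09 ± 0.493 CPM (n = 2) after *fuchi* pRNAi, a log2 fold change of -5.14. The *fuchi* pRNAi level was 2.10% of the untreated level in female 1 and 3.58% in female 2. By early stage 5 the P protein transcript stood at 275 ± 30.0 CPM against 3.60 ± 1.31 CPM, a log2 fold change of -6.29, with 1.05% left in female 1 and 1.53% in female 2. As a ratio of counts, the untreated level was 36.8-fold the *fuchi* pRNAi level at stage 3 (95% counting interval 22.5 to 65.0) and 80.8-fold at early stage 5 (61.0 to 109). These intervals pool the reads of both females and cover counting error only, and the 2 stages were not tested against each other.

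The T protein transcript g8301 stood at 12.8 ± 2.39 CPM (SD, n = 2) in the untreated group and 0.397 ± 0.115 CPM (n = 2) after *fuchi* pRNAi at stage 3, a log2 fold change of -4.98. The *fuchi* pRNAi level was 2.86% of the untreated level in female 1 and 3.31% in female 2. The levels at early stage 5 were 82.0 ± 1.83 CPM and 0.111 ± 0.158 CPM. Here 2 counts remained against 1167, a ratio of 594 with a counting interval from 164 to 4908. The fitted log2 fold change of -9.06 depends on how the library at 0 counts is treated and is no bound. In the *fuchi* pRNAi embryos g18848 went from 16 counts over both females at stage 3 to 49 at early stage 5, 4.44-fold per library size (2.49 to 8.37). There g8301 went from 6 to 2 counts, with at most 3 in any library, too few to give a direction. Of the counts of both genes together, g8301 made up 25.2% of 646 in untreated embryos at stage 3 (95% exact Clopper-Pearson interval 21.9% to 28.8%) and 27.3% of 22 after *fuchi* pRNAi (10.7% to 50.2%). The share was 23.1% of 5057 (21.9% to 24.3%) and 3.92% of 51 (0.478% to 13.5%) at early stage 5. These shares pool the reads of both females, come from the counts by which the genes were chosen, and were not tested against each other.

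**Figure D1:**
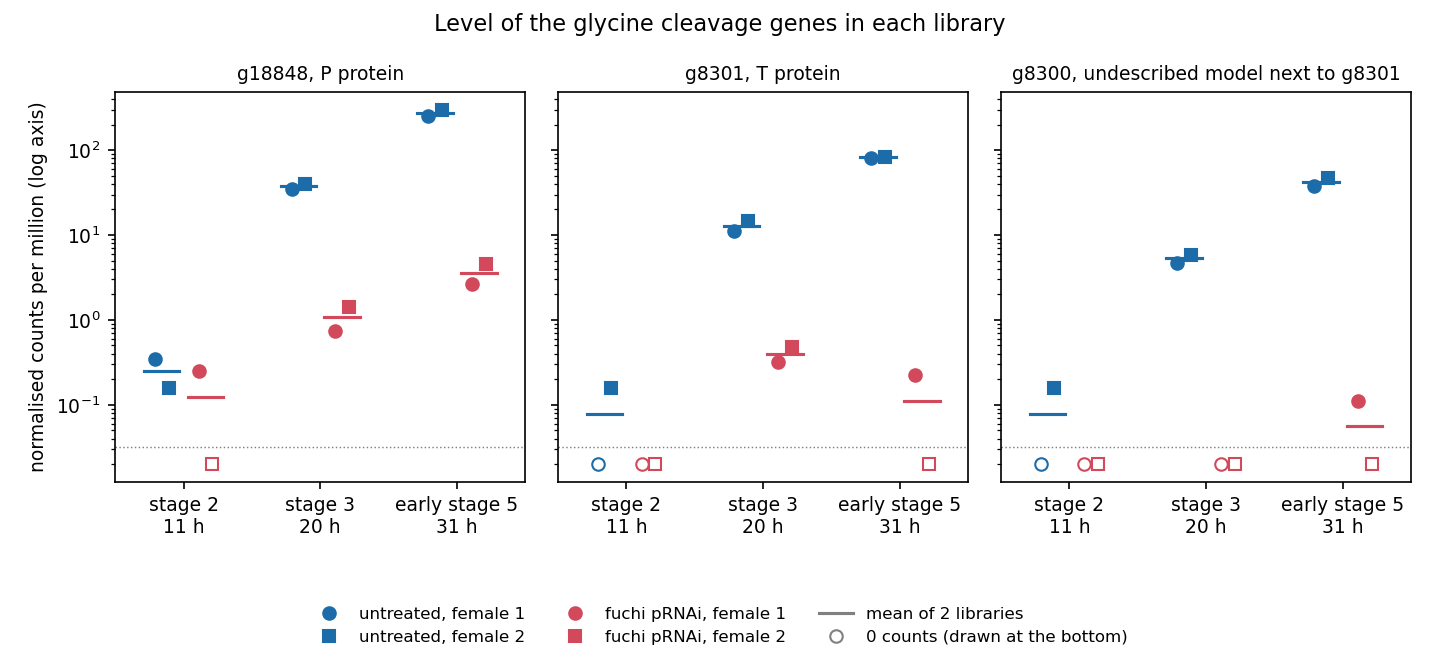
Level of g18848, g8301 and g8300 in each of the 12 libraries, as CPM scaled within the stage on a log axis, by stage; blue points are untreated and red points *fuchi* pRNAi embryos, circles female 1, squares female 2, and lines the mean of 2 libraries, with libraries at 0 counts drawn open at the bottom. At stage 3 and early stage 5 every untreated point lies above every *fuchi* pRNAi point, and for g18848 the means are 37.6 against 1.09 CPM and 275 against 3.60 CPM.

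The undescribed gene model g8300 moved with g8301. It had 0 and 1 counts in untreated embryos at stage 2, 33 and 35 at stage 3, and 294 and 300 at early stage 5, and 1 count in all in the 6 *fuchi* pRNAi libraries. With 0 counts in *fuchi* pRNAi embryos at stage 3 against 68, its level was at least 27.7-fold lower (3 counts over the group taken as the floor), and at early stage 5 the ratio was 604 (108 to 23910). Whether g8300 is a gene of its own or part of the T protein transcript was not tested. The gene model on the other side, g8302, had between 0 and 10 counts.

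Compared per length, the P and T transcripts had nearly equal levels. In the deposited RPKM values, which divide the reads by gene length and library size, g18848 stood at 8.96 in female 1 and 9.95 in female 2 in untreated stage 3 embryos, and g8301 at 9.86 and 12.5. The levels at early stage 5 were 64.8 and 83.1 for g18848 and 71.8 and 81.4 for g8301. The ratio of P to T was 0.909 and 0.797 at stage 3 and 0.903 and 1.02 at early stage 5. By RPKM both genes lay above at least 90.2% of the tested gene models in both untreated libraries of early stage 5, and at stage 3 above between 53.8% and 61.9%. In *fuchi* pRNAi embryos neither gene was above more than 21% of them at either stage.

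The H protein, which carries the lipoate arm between P, T and L, is encoded by g16375 (LOC107442132, scaffold 2216, 227879 to 235684, minus strand), and the L protein, dihydrolipoyl dehydrogenase, by g11044 (LOC107457298, scaffold 1251, 45844 to 75394, minus strand). Unlike P and T, both were present at stage 2. In order of stage, H averaged 44.4, 24.9 and 86 RPKM in untreated embryos, and L averaged 99.5, 6.98 and 17.4 RPKM, each with n = 2. P averaged 0.0696, 9.46 and 73.9 RPKM and T 0.0751, 11.2 and 76.6 RPKM. By early stage 5 the P, T and H transcripts thus lay between 64.8 and 89.6 RPKM in all 6 values. The range of P overlapped those of T and H, while both H values (89.6 and 82.5) lay above both T values (71.8 and 81.4). L lay at 16.1 and 18.7 RPKM, below all of them. The L protein is shared with other enzyme complexes that carry lipoate.

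The H transcript rose in untreated embryos from stage 3 to early stage 5, from 200 and 143 counts to 739 and 501 (log2 fold change 2.04 ± 0.28 (SE), adjusted p = 0.00429 in edgeR's test against a 2-fold change). After *fuchi* pRNAi it had 443 and 431 counts at stage 2 against 329 and 306 untreated, 234 and 120 at stage 3 against 200 and 143, and 241 and 103 at early stage 5 against 739 and 501. The groups overlapped at stage 3 and were apart at early stage 5, where the *fuchi* pRNAi level was 28.6% of the untreated level in female 1 and 23.7% in female 2. H fell at early stage 5 by 1.91 ± 0.27 on the log2 scale (adjusted p = 0.00374, quasi-likelihood test), and the values at stage 2 (0.46 ± 0.25, adjusted p = 0.983) and stage 3 (-0.27 ± 0.35, adjusted p = 0.882) did not pass. Without the *fuchi* pRNAi library of female 2 the fall at early stage 5 had an adjusted p of 0.0104, just over the threshold. Leaving out any of the 4 untreated libraries of stage 3 and early stage 5 took the rise of H over it too, with adjusted p of 0.0112 to 0.0391.

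The L transcript g11044 took another course. It had 2047 and 1166 counts in untreated embryos at stage 2, 126 and 84 at stage 3 and 289 and 247 at early stage 5, and it fell from stage 2 to stage 3 (log2 fold change -3.54 ± 0.30, adjusted p = 9.02e-06 against a 2-fold change). In *fuchi* pRNAi embryos it had 1225 and 1274, 127 and 131, and 232 and 165 counts. Its level at early stage 5 was 37.7 ± 1.47 CPM untreated and 27.8 ± 2.83 CPM after *fuchi* pRNAi (SD, n = 2 each), a log2 fold change of -0.44 ± 0.24 (adjusted p = 0.524) that did not pass, and it did not pass at the other stages.

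**Figure D2:**
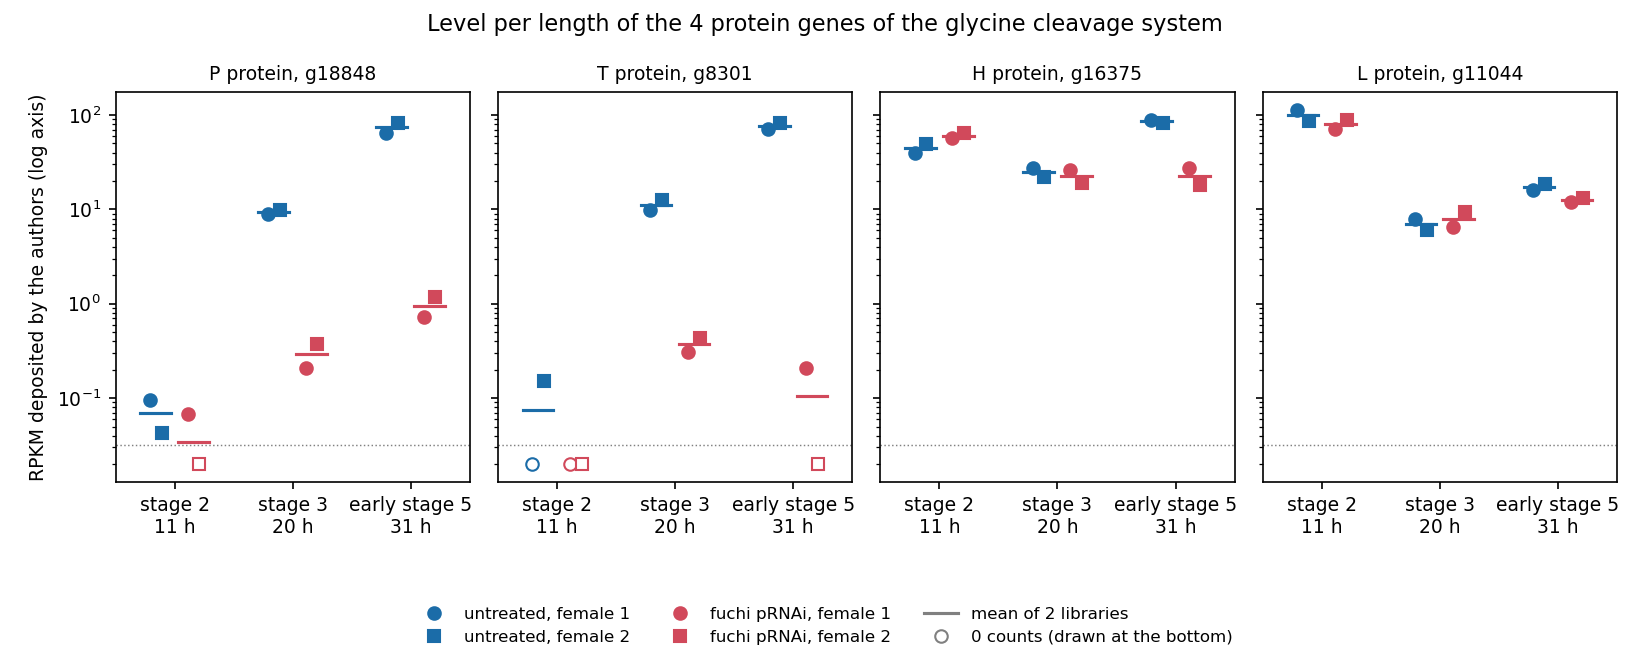
Level per length (deposited RPKM, log axis) of the genes for the P, T, H and L proteins in each library, by stage; blue points are untreated and red points *fuchi* pRNAi embryos, circles female 1, squares female 2, lines the mean of 2 libraries, and open symbols at the bottom libraries with 0 counts. P and T rise together to 73.9 and 76.6 RPKM in untreated embryos, H is present throughout, and L is highest at stage 2 with 99.5 RPKM.

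Among all gene models tested for a knockdown effect, 0.270% were called lower at stage 3 (36 of 13324 at an adjusted p under 0.01) and 2.96% at early stage 5 (366 of 12358), and none and 0.162% higher, and g18848 and g8301 were among them at both stages, as their choice required. At stage 3 the called gene model nearest to the threshold was g15443 (log2 fold change -4.74) and the nearest outside it g9244 (-1.79). The corresponding gene models of early stage 5 were g8716 (-1.91) and g25248 (-1.37).

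The transcripts of 2 GATA factor genes whose expression the study places in the endoderm, Pt-GATA4 (g25261) and Pt-GATA5 (g8337), were also lower after *fuchi* pRNAi at early stage 5. Summed over both, the level at stage 3 was 16 to 17.4 CPM in the untreated libraries and 3.58 to 6.22 CPM in those after *fuchi* pRNAi. Nearly all of this was Pt-GATA5 (15.6 against 4.13 CPM), while Pt-GATA4 stood at 1.10 against 0.768 CPM, with 39.5% of the untreated level left in female 1 and 237% in female 2. By early stage 5 it was 49.5 to 61.2 CPM and 0.223 to 1.63 CPM, and Pt-GATA4 in female 2 and Pt-GATA5 in female 1 were at 0 counts in *fuchi* pRNAi embryos. Both fell at early stage 5 (log2 fold change -7.84 ± 0.55 (SE), adjusted p = 5.42e-05 for Pt-GATA4, and -4.87 ± 0.82, adjusted p = 0.00933 for Pt-GATA5, quasi-likelihood test), and neither passed at stage 3 (-0.54 ± 1.04 and -1.93 ± 0.47). The study describes Pt-hh (g4322) as expressed first from the abembryonic side and later along the germ disc rim. Pt-hh had log2 fold changes of -2.14 ± 0.32 at stage 3 (adjusted p = 0.0127, quasi-likelihood test) and of -0.84 ± 0.24 at early stage 5 (adjusted p = 0.0948). The study's own comparison lists Pt-hh as changed at stage 3 at a false discovery rate under 0.01. The study itself lists both GATA genes as changed by *fuchi* pRNAi at early stage 5, and found a chromatin region within Pt-GATA5 whose accessibility depended on *fuchi*. Whether their lower counts reflect fewer endoderm cells was not tested. The part of the cell populations named here in the lower P and T counts was not tested either.

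To see how the genes around the glycine cleavage system behaved, 82 further gene models (70 NCBI genes) were collected by their descriptions into 5 lists: the H and L proteins, lipoate attachment, other enzyme complexes that use lipoate, glycine and serine metabolism, and folate one-carbon metabolism. At stage 2, 59 of them were tested and 0 were called (background 0%), with 2 at an unadjusted p under 0.05 and 0 called by DESeq2, by edgeR's likelihood ratio test or with the female as a block (background with the block 0.497% lower and 0.273% higher). At stage 3, 65 were tested and 0 were called by the quasi-likelihood test, against 0.270% of all gene models called lower, and 5 had an unadjusted p under 0.05. DESeq2 called 0 of them and the likelihood ratio test 1, and the 0.270% does not refer to these other tests. Of the 61 tested at early stage 5, 8 gene models of 7 NCBI genes were called lower and 0 higher, which is 13.1% lower against 2.96% of all gene models, while 19 had an unadjusted p under 0.05. These 61 had a median log2 fold change of -0.33, also with gene models at 0 counts held at their bounds, against -0.01 over all gene models tested. By list, 1 of 2 partners, 0 of 3 lipoate attachment genes, 0 of 10 lipoate complex genes, 3 of 23 glycine and serine genes and 4 of 23 folate genes fell. The lists were drawn up with earlier results of these data known. With the *fuchi* pRNAi library of female 1 left out the count at early stage 5 was 4.

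Of the genes that supply or use glycine and serine, those for the mitochondrial glycine carrier and for 2 enzymes fell at early stage 5. Gene model g7615 (SLC25A38-A), which encodes a carrier known from yeast and zebrafish to bring glycine into mitochondria, had 749 and 595 counts without and 18 and 18 with *fuchi* pRNAi, and it fell by 5.20 ± 0.33 on the log2 scale (adjusted p = 3.05e-05). In untreated embryos it rose from 130 and 122 counts at stage 3 (log2 fold change 2.59 ± 0.34, adjusted p = 0.00125). Its highest levels were thus in the same 2 libraries as those of P and T, but unlike them it had 165 and 109 counts at stage 2. One of 2 gene models for cystathionine beta-synthase, the enzyme that joins serine to homocysteine, g12656, had 149 and 134 counts at early stage 5 without and 1 and 0 with *fuchi* pRNAi, a ratio of 288 (95% counting interval 51.3 to 11410, adjusted p = 7.20e-05). The other, g12654, had 427 and 563 against 445 and 282 counts, or 54.2 and 88.3 against 49.6 and 51 CPM, and was not called (log2 fold change -0.50 ± 0.28, adjusted p = 0.541). Gene model g25743, for glycine N-methyltransferase, which uses up methyl groups by adding them to glycine, had 28 and 31 counts against 0 and 0, at least 20-fold lower (adjusted p = 0.00641). At stage 3 g25743 had 16 and 2 counts against 0 and 0 and was not called. The calls of g7615 and g12656 held in every alternative run at early stage 5, and that of g25743 was lost without the untreated library of female 2 or the *fuchi* pRNAi library of female 1 (adjusted p = 0.0143 and 0.0266) and with all 12 libraries in 1 fit (0.0541).

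Of the folate genes, which carry the carbon unit that the T protein releases, 4 gene models fell at early stage 5. Gene model g21025, described as a proton-coupled folate transporter, had 80 and 73 counts without and 2 and 1 with *fuchi* pRNAi, a ratio of 51.9 (17.4 to 254, adjusted p = 0.000346). Gene model g27710, for PURH, the bifunctional enzyme of the last steps of purine synthesis that takes a formyl group from folate, had 2336 and 2741 against 719 and 457 counts and fell by 2.16 ± 0.26 on the log2 scale (adjusted p = 0.00151). The 2 gene models of C-1-tetrahydrofolate synthase, which interconverts the carbon units bound to folate, share 1 NCBI gene. Of these, g18227 had 1028 and 581 against 332 and 145 counts (log2 fold change -1.80 ± 0.29, adjusted p = 0.00713), and g18228 had 147 and 163 against 45 and 36 counts (-1.95 ± 0.31, adjusted p = 0.00701). In each of these gene models both *fuchi* pRNAi libraries lay below both untreated ones, which describes the same libraries as the calls and is no further support for them. At stage 3 none of the 4 was called. There g21025 had 19 counts over both females untreated and 2 after *fuchi* pRNAi, a ratio of 11.6 (2.80 to 103). The stage 3 levels of g27710, g18227 and g18228 after *fuchi* pRNAi were 91.2%, 70.3% and 59.1% of the untreated level. The call of g27710 was lost without the *fuchi* pRNAi library of female 1 (adjusted p = 0.0139). That of g18227 was lost without any library other than the untreated one of female 2 (0.0105 to 0.0209), and that of g18228 without the *fuchi* pRNAi library of female 1 or the untreated one of female 2 (0.0532 and 0.0102). Both C-1-tetrahydrofolate synthase calls were also lost on log2 RPKM values (0.0109 to 0.0121), and that of g18228 with all 12 libraries in 1 fit (0.0421).

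**Figure D3:**
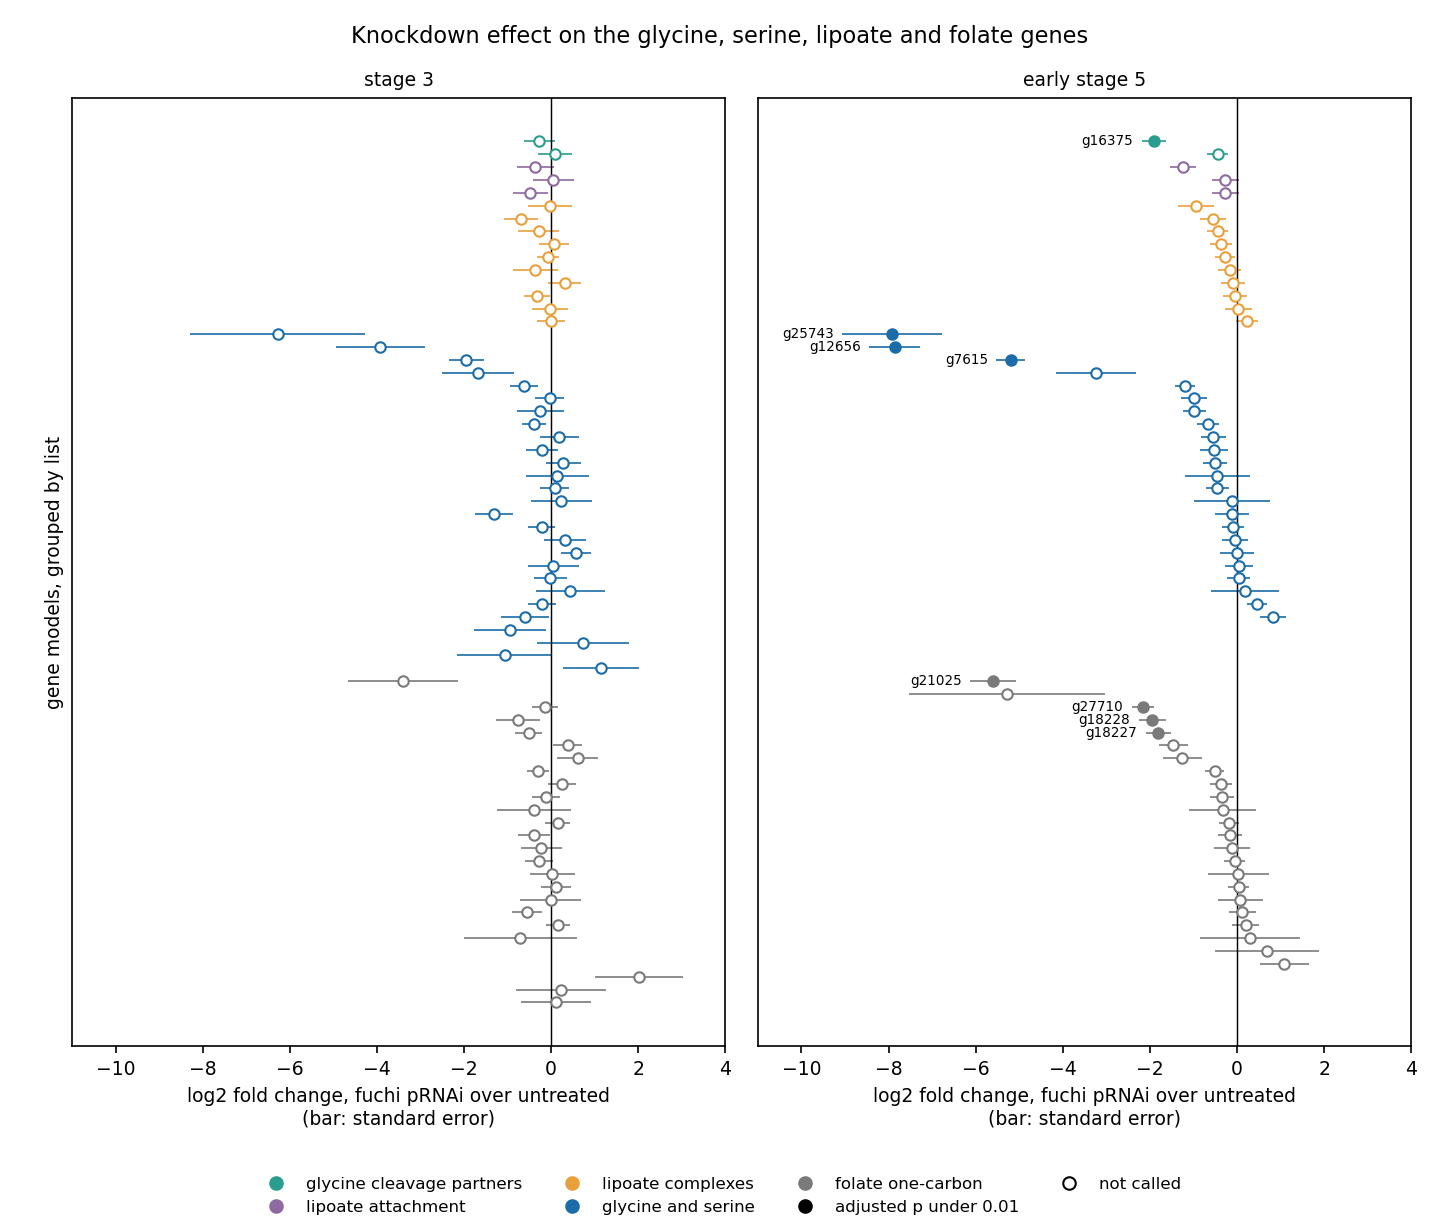
Log2 fold change of *fuchi* pRNAi over untreated embryos with its standard error for each tested gene model of the 5 lists, at stage 3 (left) and early stage 5 (right), grouped by list in colour; filled points passed an adjusted p of 0.01. At stage 3 no point is filled, and at early stage 5 the 8 filled points lie between -7.92 (g25743, with 0 counts in *fuchi* pRNAi embryos, so that only a bound can be given) and -1.80 (g18227).

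Each female gave eggs of both treatments, and with the female as a block more gene models passed, both in the lists and over all genes. Then 3 list genes were called lower at stage 3, against a background of 2.00% lower and 0.60% higher: g12656 (log2 fold change -4.02, adjusted p = 1.15e-06), g7615 (-1.95, adjusted p = 3.14e-05) and g25490, a serine-pyruvate aminotransferase-like gene whose enzyme is known in mammals to make glycine from glyoxylate (-1.33, adjusted p = 0.00578). The count at early stage 5 was 12 lower and 0 higher against backgrounds of 6.51% and 1.47%, and all 8 named above were among them. The further 4 were g25288, the mitochondrial serine hydroxymethyltransferase, which turns glycine and serine into each other (-1.19, adjusted p = 0.000147), g12183, lipoyl synthase (-1.24, adjusted p = 0.00124), g16425, a formimidoyltransferase-cyclodeaminase-like gene (-1.37, adjusted p = 4.45e-05), and g9782, D-3-phosphoglycerate dehydrogenase, the entry to serine synthesis (-0.97, adjusted p = 0.00277). The blocked fit of 1 stage rests on 1 residual degree of freedom per gene. Without the block, g25288 had an adjusted p of 0.0173. DESeq2, the likelihood ratio test and the fit without the filter also called g25288 and g16425, and the fit without the filter g9782, while g12183 was called with the block alone among the alternatives that kept all libraries.

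The effect of the knockdown on the list genes was also compared between stage 3 and early stage 5 directly. In this test of the difference, 0 of 68 gene models were called by the quasi-likelihood test, against 0.228% lower and 0.0414% higher over all 14498, with 9 at an unadjusted p under 0.05. DESeq2 called 2 of them, and the shares over all gene models given here do not refer to it. The smallest adjusted p was that of the glycine carrier g7615 (difference of log2 fold changes -3.16 ± 0.52, adjusted p = 0.0137). With the female as a block, g7615 (-3.17, adjusted p = 0.00145) and g27710 (-1.89, adjusted p = 0.0049) passed against backgrounds of 0.607% lower and 0.0759% higher. For H the difference was -1.56 ± 0.39 (adjusted p = 0.129). A larger effect at early stage 5 than at stage 3 was therefore not shown for the other genes called at early stage 5.

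The abundant genes of the lists that no comparison called included 2-oxoglutarate dehydrogenase (g27054) and the succinyltransferase of its complex (g5765), folylpolyglutamate synthase (g8998), which retains folate in cells, cytosolic serine hydroxymethyltransferase (g17154), dihydrofolate reductase (g4930) and the glycine transporter g10261. Their log2 fold changes at early stage 5 lay between -0.67 ± 0.26 (g17154, adjusted p = 0.262) and 0.47 ± 0.23 (g10261, adjusted p = 0.458). Over all 53 uncalled gene models the fitted values ranged from -5.28 to 1.09, the lowest being that of g9665 with 9 against 0 counts, which allows only the bound of at least 3.05-fold lower.

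The rise of P and T in untreated embryos was set beside the stage changes of the list genes, tested against a 2-fold change in the fit of all 12 libraries. From stage 2 to stage 3, 6 of 68 list genes were called lower and 4 higher, which is 8.82% and 5.88% against 7.81% and 8.47% of all gene models. Besides L, the genes called lower were the E1 alpha (g17042) and E1 beta (g26827) subunits of pyruvate dehydrogenase, the 2-oxoglutarate dehydrogenase E1 component DHKTD1 (g19778), D-3-phosphoglycerate dehydrogenase (g9782) and cystathionine beta-synthase g12654, with log2 fold changes between -2.85 and -1.87. Those called higher were g25490 (2 counts against 333 over both females, 217-fold with a counting interval of 59.5 to 1797), g14870, which encodes the enzyme that formylates mitochondrial initiator tRNA (log2 fold change 5.29 ± 0.47, adjusted p = 7.06e-06), g12656 (7 counts against 72, adjusted p = 0.00977) and g8150, a threonine aldolase that makes glycine from threonine (9 counts against 58, adjusted p = 0.00627). Leaving out single libraries gave 5 to 12 calls, with 5 without the untreated stage 3 library of female 2 and 6 without the untreated stage 2 library of female 2. Of the 10 genes, L, g17042, g25490 and g14870 were called whichever library was left out. Over the 12 such runs the call of g12656 was lost in 10, that of g8150 in 7, those of g26827 and g12654 in 3, that of g9782 in 2 and that of g19778 in 1. The calls of g12656 and g8150 were lost with DESeq2 (adjusted p = 0.0106 and 0.0155), as was that of g26827 (0.0358). With the female as a block 13 were called against backgrounds of 9.62% lower and 10.9% higher, all 10 of these, phosphoserine aminotransferase g22552 and the acetyltransferase of pyruvate dehydrogenase g7844, both lower, and L-threonine 3-dehydrogenase g23526, higher (adjusted p = 0.00719, 0.00445 and 0.00857).

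From stage 3 to early stage 5, 3 of 68 list genes were called higher and 1 lower, 4.41% and 1.47% against 2.48% and 4.67% of all gene models. The higher ones were H, the glycine carrier g7615 and g7343, an adenosine-3-like enzyme of purine synthesis that also takes its carbon from folate (log2 fold change 1.74 ± 0.22, adjusted p = 0.00653). The lower one was phosphoserine aminotransferase, g22552, an enzyme of serine synthesis (-2.71 ± 0.36, adjusted p = 0.00113). With the female as a block 7 were called against backgrounds of 3.67% higher and 6.01% lower, all 4 of these and g27710, g21025 and g8150, each higher. The count fell to 1 without the untreated stage 3 library of either female or the untreated early stage 5 library of female 1, and to 2 without the untreated early stage 5 library of female 2. The call of g7343 was lost without any of these 4 libraries (adjusted p = 0.0162 to 0.0403), that of g7615 without either stage 3 library (0.0121 and 0.0148), and that of g22552 without the early stage 5 library of female 1 (0.0179).

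**Figure D4:**
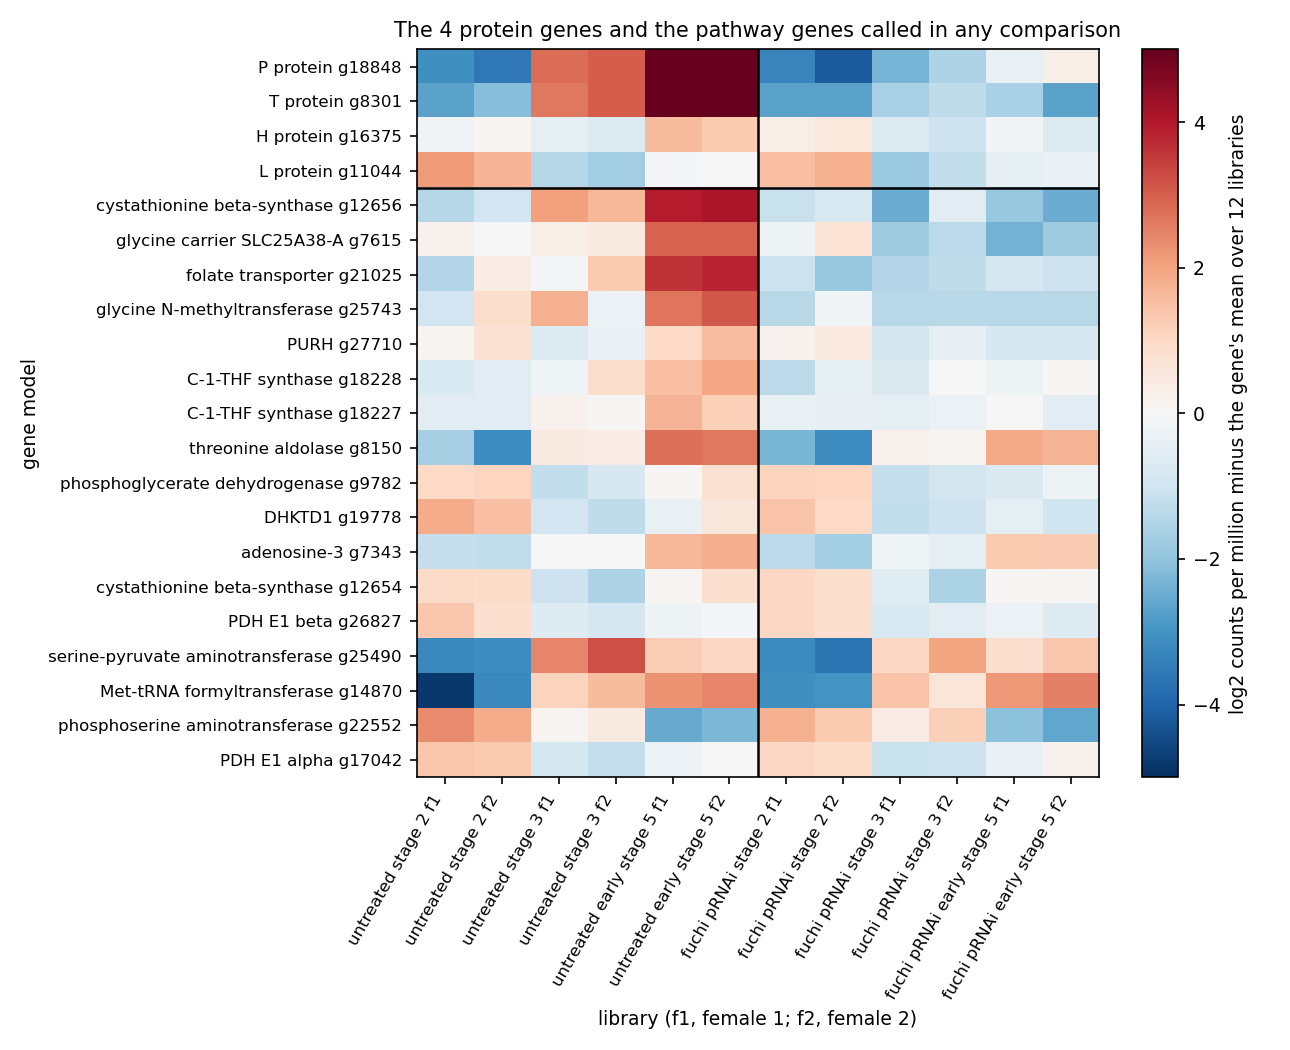
Log2 CPM of the P, T, H and L protein genes (top) and of the other list genes called in any comparison without the block, in each of the 12 libraries, as the difference from the gene's own mean over the 12 libraries; columns are libraries, f1 and f2 the females, and the colour scale is limited to 5 in either direction. P and T are well above their means in the 4 untreated libraries of the 2 later stages alone, while L, the pyruvate dehydrogenase subunits and g12654 are highest at stage 2.

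Over the 12 libraries the log2 CPM of g18848 and g8301 correlated with r = 0.946, and each was compared with 14497 other gene models in the same way. For g18848, g8301 was the 27th most alike. For g8301, g18848 was the 89th. The 5 gene models most like g18848 were g9228, a potassium channel subfamily K member 6 gene (r = 0.984), g18043, uncharacterized (0.982), g16422, with no description (0.974), g15032, a bone morphogenetic protein 2-A-like gene (0.972), and g14890, uncharacterized (0.970). The 5 most like g8301 were g27539, with no description (0.992), g486, a platelet glycoprotein 4-like gene (0.989), g9968, a forkhead box B1-like gene (0.989), g12453, uncharacterized (0.989), and the adjacent g8300 (0.989). Of these, g486 had 5 and 4, 271 and 254, and 1516 and 1468 counts in untreated embryos in order of stage, and between 0 and 9 in each *fuchi* pRNAi library.

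These correlations are a description over 12 libraries that share 2 mothers, 3 stages and 1 treatment. They include the counts by which g18848 and g8301 were chosen. Likeness to each other and to other genes that fell after knockdown follows in part from that choice. At more than 0.95, 20 gene models correlated with g18848 and 83 with g8301. The order among them depends on the scale. With Spearman's coefficient or within female 1 alone, none of the 5 gene models listed for g18848 was among its first 5. The place of g8301 among the gene models most like g18848 was 5 on log2(RPKM + 1) (r = 0.989), 19 within female 1 (0.982), 244 within female 2 (0.913) and 1158 by Spearman's coefficient (0.803). Of the other glycine cleavage genes, H correlated with g18848 at 0.430 and L at -0.482, and with g8301 at 0.531 and -0.398.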

How the data were processed

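Poly(A) RNA of whole embryos was sequenced single-end from strand-specific libraries. The authors deposited raw counts per AUGUSTUS gene model of the Ptep_1.0 assembly, made with HTSeq 0.6.1p1, and RPKM values that scale these counts by gene length and library. The aligner and the strand setting were not given in the sources used here, and reads of near-identical genes cannot be assigned. Names came from the deposited tables. The supplied gene table is of another assembly and served for nothing.

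Stages were fitted separately with edgeR 4.0.16 in R 4.3.3, with TMM scaling, gene models of at least 1 CPM in at least 1 library, the quasi-likelihood F test and a Benjamini-Hochberg adjusted p under 0.01. Stage changes (glmTreat, 2-fold) and differences of the effect between stages used 1 fit of all 12 libraries (14498 gene models). An SE is the log2 fold change over the square root of F. Ratios of counts have exact conditional binomial 95% intervals, and a group at 0 counts was held at a floor of 3. Correlations used log2 CPM with a prior count of 2. The scripts were tested on simulated data.

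Replicates were taken as 2 females, from 1 code per replicate in the labels, and each gave untreated and *fuchi* pRNAi eggs. The deviations of both treatments from their group means correlated by female with 0.567, 0.454 and 0.411 at the 3 stages, so a fit with the female as a block was an alternative. Further alternatives were DESeq2 1.42.0, its size factors, edgeR's likelihood ratio test, no filter, 1 fit for all libraries, limma 3.58.1 on log2(RPKM + 1) and log2(RPKM + 0.1), and leaving out each library. Replicates were no duplicates of each other (chi-square per gene model, on average, 30.8 to 48.5).

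The members, the lists, the tests and the rule for naming genes were chosen with earlier results of these data known. Named are both members, all H and L gene models, every list gene called in a comparison, the 6 uncalled list genes with the highest mean CPM, the 5 gene models most like each member, *fuchi* and 4 marker genes. Genes called with the block but not without it, g8300 and the neighbours were added after their values were seen. List genes were found by description, and 4 gene models whose names belong to another product were left out.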

Additional observations from a re-analysis of the deposited data

Results flagged for a closer look

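In the H protein gene g16375 the *fuchi* pRNAi level lay above the untreated level at stage 2 and below it at the later stages in both females. The log2 fold change was 0.46 at stage 2 and -0.27 at stage 3, a difference of -0.72. By early stage 5 it had reached -1.91, a difference of -2.37 from stage 2. In g18227, a gene model of C-1-tetrahydrofolate synthase, the values in order of stage were 0.17, -0.51 and -1.80, differences of -0.68 and -1.97 from stage 2. Neither gene was called at stage 2 or at stage 3, and these 4 differences from stage 2 were not tested.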

How the results depend on the processing

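The log2 fold change of g18848 stayed negative in every alternative run at stage 3 and early stage 5, and so did that of g8301. On log2(RPKM + 1), where a pseudocount shrinks low values, they were -3.02 (g18848) and -3.14 (g8301) at stage 3 and -5.26 and -6.14 at early stage 5. On log2(RPKM + 0.1) the stage 3 values were -4.64 and -4.58. For g8301 at stage 3 DESeq2 gave -5.05, the replicate block -4.96 and the fit of all 12 libraries -5.0. Leaving out single libraries gave -5.67 to -4.70 (g18848) and -5.29 to -4.69 (g8301) at stage 3, and -6.68 to -5.91 and -12.08 to -8.42 at early stage 5, where g8301 had 2 and 0 counts in *fuchi* pRNAi embryos.

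Of the list genes, 1 was called at stage 3 by the likelihood ratio test, 2 without the filter and 3 with the replicate block. At early stage 5 the count was 8, with 6 to 12 in the alternatives that kept all libraries and 4 to 8 when single libraries were left out. From stage 2 to stage 3 in untreated embryos leaving out single libraries gave 5 to 12 calls. From stage 3 to early stage 5 the replicate block gave 7, and leaving out single libraries 1 to 4. For the difference of the effect between stages DESeq2, no filter and the replicate block each gave 2, and leaving out single libraries 0 to 1, with 1 without either *fuchi* pRNAi library of stage 2. The calls over all gene models also differed between the alternatives that kept all libraries. They ranged from 10 to 346 at stage 3, from 327 to 986 at early stage 5 and from 39 to 247 for the difference. In untreated embryos they ranged from 1807 to 2978 from stage 2 to stage 3 and from 859 to 1541 from stage 3 to early stage 5. A higher list count in an alternative is therefore no result about the lists alone. The causes were not tested. The block for the female removed no call, and the report names those it added. Of the 5 gene models most like g18848, 0 to 2 were kept in the other settings, and of those most like g8301, 0 to 3.

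With 2 libraries a group, p-values rest on spread shared across genes. Where a lone library was left in a group, it was assumed to vary like the others. At stage 2 both members lay near the floor of 3 counts, and a difference was not detectable.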
